A study of Mus musculus with 11 samples.

Results

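The guanylate-binding proteins (GBPs) are a family of large GTPases that cells make in response to interferons. Their genes were taken as every row of the deposited count and CPM tables that carries the gene name *Gbp2*, *Gbp3*, *Gbp4*, *Gbp5*, *Gbp6*, *Gbp7*, *Gbp8*, *Gbp9* or *Gbp10*, which gave 9 of the 26283 genes in the tables. Each GBP binds and hydrolyzes GTP and can assemble into coats on the membranes of pathogen-containing vacuoles, on bacteria and on some intracellular membranes. Interferon gamma and type I interferons both raise transcription of these genes, through JAK kinases and the transcription factors that they activate. GBPs are produced by epithelial cells, macrophages, endothelial cells and other cell types once these are exposed to interferon, so that in a tumor they can come from malignant and host cells alike.

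RNA was sequenced in bulk from mammary tumors of C57BL/6 mice at 18 weeks of age, 11 tumors in all, of which 6 were PyMT *Pcbp1*–/– (knockout) and 5 were PyMT *Pcbp1*+/+ (wild-type). All animals carried MMTV-PyMT, the polyomavirus middle T oncogene under a mammary promoter, together with MMTV-Cre, and the groups differed in having *Pcbp1*(fl/fl) or non-floxed *Pcbp1*(wt/wt) alleles. MMTV-Cre is designed to act in mammary epithelial cells, so immune, endothelial and other stromal cells of a knockout tumor are expected to keep the gene, but *Pcbp1* was not measured by cell type here. The estimated counts per tumor summed to between 10543189 and 14092192, and the floor of 3 counts, the level that a count of 0 still allows, lay between 0.213 and 0.285 CPM (counts scaled to the library total, as deposited) and covers counting error only. The comparison asks which transcripts differ between tumors with and without epithelial PCBP1, a poly(C)-binding protein, and the labels call the tumors separate samples without saying more, so that p-values measure the spread between these tumors.

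*Pcbp1* itself matched the genotype labels. It had 268, 271, 225, 220 and 259 CPM in wild-type replicates 1 to 5 and between 15.4 and 33.6 CPM, with a median of 20.9, in the 6 knockout tumors. Every wild-type tumor lay far above every knockout tumor (log2 fold change -3.43, standard error [SE] 0.19, edgeR adjusted p = 4.72e-06). Replicate 5 of the wild-type group therefore had the *Pcbp1* level of its label, although its GBP transcripts were low, as described next. The counts of GBP genes called, their spans among wild-type tumors and their correlations are given with and without it.

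The GBP transcripts were on average less abundant in knockout tumors. The summed CPM of the 9 genes was 67.4 ± 11.0 (SD, n = 6) in knockout tumors and 135 ± 67.7 (SD, n = 5) in wild-type tumors, a ratio of the means of 0.498. In wild-type replicates 1 to 5 the sum was 153, 101, 229, 146 and 46.4 CPM, and in the knockout tumors it ran from 54.6 to 81.9 CPM with a median of 67.3. In words, 4 wild-type tumors lay above all 6 knockout tumors, while replicate 5 lay below all of them. Leaving out replicate 5 gave a ratio of 0.428, and leaving out replicate 3, the tumor with the highest sum, gave 0.603. In bulk tissue, fewer cells of a type that makes GBPs and less GBP RNA per cell cannot be told apart.

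Of the 9 GBP genes, 8 passed the filter on low counts and were tested, and *Gbp10* did not. All 8 had a negative log2 fold change, with a median of -0.95 and a range from -2.04 to -0.25, against a median of -0.00012 and 9619 negative values among the 19232 genes tested. At an adjusted p under 0.05 (edgeR's quasi-likelihood test, Benjamini-Hochberg over all genes tested), 1 GBP gene, *Gbp3*, was lower in knockout tumors, and 1.66% of all tested genes (319) were lower. None of the 8 was higher by edgeR, where 0.608% of all tested genes (117) were. At an unadjusted p under 0.05, edgeR placed 5 GBP genes lower, as it did 10.5% of all tested genes (2025), and 0 higher, as it did 8.19% (1576), and neither DESeq2 nor limma-voom called a GBP gene higher, where 2.51% and 5.03% of their tested genes were. For 0 of the 9 genes were the groups free of overlap in CPM, whereas 2.02% of tested genes (389) were lower with no overlap.

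The count of GBP genes called depended on single tumors and on the tool. Without wild-type replicate 5, edgeR called 5 GBP genes lower (*Gbp2*, *Gbp3*, *Gbp5*, *Gbp6* and *Gbp7*), while 1.65% of all genes tested were lower in the same fit. In that subset 4 of the genes (*Gbp2*, *Gbp3*, *Gbp6* and *Gbp7*) had no overlap between the groups, as did 3.61% of tested genes in the lower direction. Replicate 5 was singled out for its low GBP values, so both counts without it follow in part from that choice. The shares of all genes do not. Without wild-type replicate 2, 3 GBP genes were called (*Gbp2*, *Gbp3* and *Gbp6*), against 1.82% of all genes. With all 11 tumors, DESeq2 called 3 (*Gbp2*, *Gbp3* and *Gbp6*), against 3.77% of all genes, and limma's voom, with weights for sample quality, called 4 (*Gbp2*, *Gbp3*, *Gbp6* and *Gbp7*), against 6.19%. The sample weights let tumors unlike the rest of their group count for less.

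**Figure D1:**
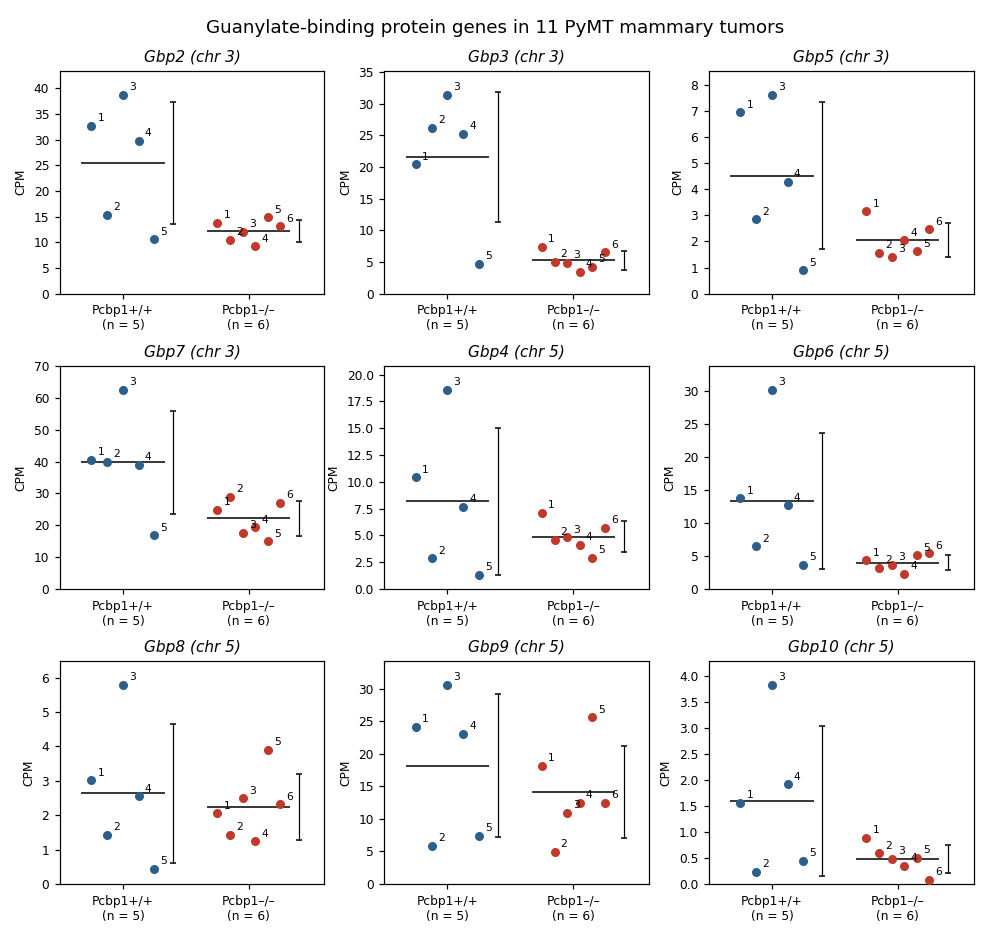
CPM (y axis, linear, from 0) of the 9 GBP genes in each tumor, with the replicate number beside each point, a line at the group mean and a bar of 1 SD on each side of it (5 wild-type and 6 knockout tumors). Wild-type replicate 3 is the highest of the 11 tumors in 9 of 9 panels, and wild-type replicate 5 lies within or below the knockout tumors in each.

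The family sits in 2 clusters of neighboring genes in the mouse genome. On the plus strand of chromosome 3 (GRCm38) the deposited gene spans run in the order *Gbp5* (chr3:142493978-142522344), *Gbp7* (chr3:142530342-142550149), *Gbp3* (chr3:142560026-142573209) and *Gbp2* (chr3:142620602-142638008). On the minus strand of chromosome 5 lie *Gbp8* (chr5:105014150-105139540), *Gbp9* (chr5:105077630-105139539), *Gbp4* (chr5:105115767-105139586), *Gbp10* (chr5:105215699-105239533) and *Gbp6* (chr5:105270702-105293698). The chromosome 3 genes summed to 41.7 ± 7.23 CPM (SD, n = 6) in knockout and 91.4 ± 38.7 CPM (SD, n = 5) in wild-type tumors. The chromosome 5 genes summed to 25.7 ± 8.46 CPM (SD, n = 6) and 44.0 ± 30.8 CPM (SD, n = 5).

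*Gbp3* (ENSMUSG00000028268.14), a member of the chromosome 3 cluster that as a whole protects mice against *Toxoplasma*, differed most. It had 20.5, 26.2, 31.5, 25.2 and 4.73 CPM in wild-type replicates 1 to 5. In knockout tumors its lowest, median and highest values were 3.44, 4.96 and 7.43 CPM. Thus 4 wild-type tumors stood well above all knockout tumors, and replicate 5 fell among the latter. The means were 5.27 ± 1.48 CPM (SD, n = 6) and 21.6 ± 10.2 CPM (SD, n = 5), which gave a log2 fold change of -2.04 (SE 0.37, edgeR adjusted p = 0.0153). *Gbp3* was called with each of the 11 tumors left out in turn, with log2 fold changes between -2.29 and -1.81 and adjusted p-values between 0.000380, without wild-type replicate 5, and 0.0464.

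*Gbp2* (ENSMUSG00000028270.12) encodes a prenylated GBP that is recruited to pathogen-containing vacuoles. Its CPM was 32.6, 15.4, 38.7, 29.8 and 10.6 in wild-type replicates 1 to 5, and 9.21, 12.6 and 14.9 at the lowest, median and highest knockout tumor. Replicates 1, 3 and 4 were clearly high, replicate 2 lay just above the highest knockout tumor, and replicate 5 lay within their range. With means of 12.3 ± 2.13 (SD, n = 6) and 25.4 ± 11.9 CPM (SD, n = 5), the log2 fold change was -1.05 (SE 0.29) and did not pass the threshold (adjusted p = 0.0777 from edgeR). Without wild-type replicate 5 it was -1.24 (edgeR adjusted p = 0.0199), and without replicate 2 it was -1.19 (edgeR adjusted p = 0.0471). These were the only 2 of 11 fits leaving out a tumor that called *Gbp2*. Without replicate 3 the log2 fold change was -0.80 (edgeR adjusted p = 0.177).

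*Gbp7* (ENSMUSG00000040253.15), which in macrophages has been linked to assembly of the phagocyte NADPH oxidase, had 40.6, 40.0, 62.6, 39.1 and 16.8 CPM in wild-type replicates 1 to 5. The knockout tumors had a low of 15.0, a median of 22.1 and a high of 28.9 CPM. Here replicates 1, 2 and 4 were nearly equal, replicate 3 was far higher, and replicate 5 again fell inside the knockout range. The log2 fold change of -0.86 (SE 0.27) did not pass the threshold (adjusted p = 0.123 from edgeR) with all tumors. It passed without replicate 5 at -1.04 (edgeR adjusted p = 0.0324), the only 1 of 11 fits leaving out a tumor that called *Gbp7*. Without replicate 3 the log2 fold change was -0.58 (edgeR adjusted p = 0.263). Counts of *Gbp7* departed from whole numbers by more than 0.01 in all 11 tumors. The source of the fractions was not tested, and the level of this gene is uncertain to that extent.

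*Gbp5* (ENSMUSG00000105504.4), another prenylated member and a promoter of NLRP3 inflammasome assembly in macrophages, was rarer. It had 6.94, 2.85, 7.62, 4.28 and 0.893 CPM in wild-type replicates 1 to 5, against a low of 1.42, a median of 1.84 and a high of 3.16 CPM in knockout tumors. Replicates 1, 3 and 4 were above the knockout range, replicate 2 was inside it and replicate 5 was under it. The log2 fold change was -1.14 (SE 0.43, edgeR adjusted p = 0.179), and without replicate 5 it was -1.39 (adjusted p = 0.0457). No other alternative placed *Gbp5* past the threshold.

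On chromosome 5, *Gbp6* (ENSMUSG00000104713.4) had the largest fold change. Its values were 13.7, 6.46, 30.2, 12.7 and 3.66 CPM in wild-type replicates 1 to 5, and 2.29, 4.02 and 5.40 CPM at the lowest, median and highest knockout tumor. Replicates 1 to 4 were above all knockout tumors, by little in replicate 2 and by much in replicate 3, and replicate 5 was among them. The log2 fold change of -1.75 (SE 0.45) did not pass the threshold (adjusted p = 0.0664 from edgeR). It passed without replicate 5 (-1.99, adjusted p = 0.0249) and without replicate 2 (-1.93, adjusted p = 0.0461), and without replicate 3 it was -1.13 (adjusted p = 0.142).

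*Gbp10* (ENSMUSG00000105096.1) is a close paralog of *Gbp6*, and both had counts that were not whole in 10 of 11 tumors at a tolerance of 0.01. How reads were divided between the 2 genes, if they were, is not known. With between 1.00 and 43.8 counts per tumor, *Gbp10* was too rare for the filter. It had 1.57, 0.237, 3.83, 1.92 and 0.448 CPM in wild-type replicates 1 to 5 and between 0.0773 and 0.894 CPM in knockout tumors. The order of the wild-type tumors resembled that of *Gbp6* in that replicate 3 was high and replicates 2 and 5 were low, and these 2 tumors were within the knockout range. With no filter the log2 fold change was -1.71 (adjusted p = 0.213 from edgeR).

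*Gbp9* (ENSMUSG00000029298.15) had the widest range among knockout tumors of the 8 tested members. It had 24.1, 5.88, 30.6, 23.1 and 7.41 CPM in wild-type replicates 1 to 5 and a low of 4.95, a median of 12.5 and a high of 25.6 CPM in knockout tumors. Only replicate 3 was above all knockout tumors, and the groups overlapped broadly (log2 fold change -0.36, SE 0.46, edgeR adjusted p = 0.709). *Gbp4* (ENSMUSG00000079363.7) had 10.4, 2.85, 18.6, 7.65 and 1.34 CPM in wild-type replicates 1 to 5 and 2.91, 4.69 and 7.09 CPM at the lowest, median and highest knockout tumor. Replicates 1, 3 and 4 were above that range and replicates 2 and 5 were under it (log2 fold change -0.77, SE 0.51, edgeR adjusted p = 0.444).

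*Gbp8* (ENSMUSG00000034438.16) had 3.01, 1.42, 5.78, 2.55 and 0.447 CPM in wild-type replicates 1 to 5 and 1.24, 2.18 and 3.90 CPM at the lowest, median and highest knockout tumor. Only replicate 3 stood above the knockout tumors, and only replicate 5 below them. The log2 fold change of -0.25 (SE 0.50, edgeR adjusted p = 0.825) changed sign to 0.33 without replicate 3, so that *Gbp8* has no settled direction in these data. Without the same tumor *Gbp9* was at -0.04 and *Gbp4* at -0.14, whereas *Gbp3* was at -1.81 (adjusted p = 0.0412 from edgeR). Whether *Gbp3* differed more than these chromosome 5 members was not tested.

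**Figure D2:**
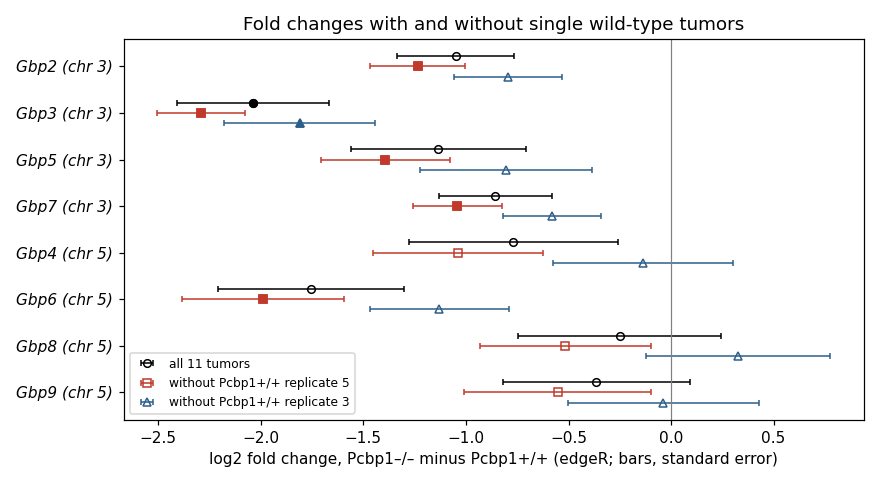
Log2 fold changes (x axis, knockout minus wild-type, edgeR) of the 8 tested GBP genes with all 11 tumors, without wild-type replicate 5 and without wild-type replicate 3, where bars are 1 standard error on each side and filled symbols mark an adjusted p under 0.05. *Gbp3* is filled in all 3 fits, and *Gbp8* crosses 0 without replicate 3.

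On chromosome 5, 3 of the genes could not be cleanly separated by position. The deposited span of *Gbp9* lies 100% inside that of *Gbp8* on the same strand, and 99.8% of the span of *Gbp4* lies inside each of those of *Gbp8* and *Gbp9*. In the RefSeq annotation of GRCm38.p6, *Gbp8* (chr5:105012513-105053609), *Gbp9* (chr5:105076464-105110357) and *Gbp4* (chr5:105115767-105139586) follow each other without overlap. In the GENCODE vM39 annotation, *Gbp4*, *Gbp8* and *Gbp9* share 107 bases of exon with one another. How the authors' counting treated reads in shared exons is not given in the sources used here, so the levels of these 3 genes are uncertain, although their counts were whole, to within 0.01, in all 11 tumors.

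**Figure D3:**
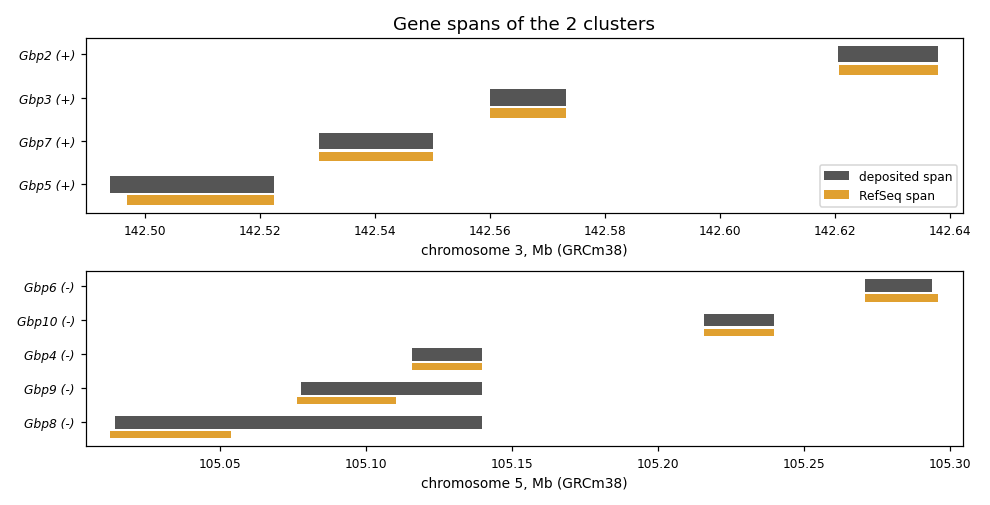
Positions of the GBP genes on chromosomes 3 and 5 (x axis, Mb of GRCm38), as spans in the deposited tables (grey) and in RefSeq for GRCm38.p6 (orange), with the strand beside each name. The deposited spans of *Gbp8*, *Gbp9* and *Gbp4* overlap and the RefSeq spans do not, while the 4 chromosome 3 genes are separate in both.

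Levels were compared between members as CPM per kb of exon, using exon lengths from GENCODE vM39 matched by Ensembl identifier, since longer transcripts yield more reads. In wild-type tumors the order of mean levels was *Gbp2* (9.93 ± 4.65 CPM per kb, SD, n = 5), *Gbp7* (6.65 ± 2.70), *Gbp3* (5.09 ± 2.40), *Gbp6* (1.97 ± 1.52), *Gbp9* (1.88 ± 1.13), *Gbp4* (0.842 ± 0.708), *Gbp5* (0.620 ± 0.385), *Gbp8* (0.587 ± 0.448) and *Gbp10* (0.273 ± 0.245). The means of neighbors in this order differed by less than the SD of the higher member for every pair but *Gbp3* and *Gbp6*. In knockout tumors *Gbp2* (4.79 ± 0.832 CPM per kb, SD, n = 6) and *Gbp7* (3.70 ± 0.940) again had the highest means, and *Gbp9* (1.46 ± 0.729) stood above *Gbp3* (1.24 ± 0.348). *Gbp7* exceeded *Gbp3*, *Gbp3* exceeded *Gbp6*, *Gbp9* exceeded *Gbp4* and *Gbp8* exceeded *Gbp10* in 5 of 5 wild-type and 6 of 6 knockout tumors. *Gbp2* exceeded *Gbp7* in 4 of 5 and 5 of 6, *Gbp4* exceeded *Gbp5* in 4 of 5 and 6 of 6, and *Gbp5* exceeded *Gbp8* in 4 of 5 but only 1 of 6. *Gbp6* exceeded *Gbp9* in 2 of 5 wild-type tumors and in 0 of 6 knockout tumors, so their order is not settled in the former and is the reverse in the latter. The exon lengths come from a later annotation than the one used for counting and may not match it for every member.

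The make-up of the GBP transcript pool was compared as well as its size. *Gbp3* made up 7.76 ± 1.37% (SD, n = 6) of the summed GBP CPM in knockout tumors and 16.1 ± 6.01% (SD, n = 5) in wild-type tumors. Its share was 13.3, 25.9, 13.7, 17.3 and 10.2% in wild-type replicates 1 to 5 and between 5.77 and 9.08% in knockout tumors. For this share the groups did not overlap, and replicate 5, low in total GBP transcripts, was also above every knockout tumor. The shares were compared after the values were seen and carry no test. *Gbp2* made up 18.2 ± 1.70% (SD, n = 6) and 19.3 ± 3.19% (SD, n = 5), and *Gbp7* 33.3 ± 9.01% (SD, n = 6) and 31.2 ± 6.19% (SD, n = 5), with broad overlap.

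Within a cluster, *Gbp3* relative to *Gbp7* was 0.504, 0.654, 0.503, 0.646 and 0.281 in wild-type replicates 1 to 5, as a ratio of CPM, and between 0.174 and 0.299 in knockout tumors. Replicate 5 lay at the upper end of the knockout range and the other 4 were well above it. *Gbp6* relative to *Gbp4* was 1.32, 2.27, 1.63, 1.66 and 2.73 in wild-type replicates 1 to 5 and between 0.560 and 1.75 in knockout tumors, with a median of 0.731. A single knockout tumor, replicate 5, reached the wild-type range, and its high ratio came with the lowest *Gbp4* of its group. *Gbp9*, *Gbp8* and *Gbp4* went the other way as shares of the pool, at 20.6 ± 8.74% (SD, n = 6) against 13.3 ± 4.34% (SD, n = 5) for *Gbp9* and 3.30 ± 1.23% (SD, n = 6) against 1.72 ± 0.586% (SD, n = 5) for *Gbp8*. For *Gbp4* the shares were 7.25 ± 1.68% (SD, n = 6) in knockout and 5.16 ± 2.34% (SD, n = 5) in wild-type tumors.

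GBP transcripts spanned wider ranges among wild-type than among knockout tumors for 9 of 9 genes with all tumors and for 7 of 9 without wild-type replicate 5. The highest wild-type value was 3.64 times the lowest for *Gbp2*, 6.65 times for *Gbp3* and 13.9 times for *Gbp4*, against 1.62, 2.16 and 2.44 times among knockout tumors. Without replicate 5 these wild-type spans were 2.52, 1.54 and 6.53 times, so that the direction turned for *Gbp3*, as it did for *Gbp7*, from 3.72 times to less than the 1.93 times among knockout tumors. For *Gbp9* the span was similar in both groups, 5.20 and 5.18 times, and did not depend on replicate 5. Wild-type replicate 3 had the highest value of all 11 tumors for 9 of 9 GBP genes. Replicate 5 was the lowest of its group for 7 genes, and replicate 2 for the other 2, *Gbp9* and *Gbp10*. Compared with the knockout tumors, replicate 5 lay below all of them for 3 genes (*Gbp4*, *Gbp5* and *Gbp8*) and within their range for the other 6.

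Wild-type replicate 2 split the family. It had 26.2 CPM of *Gbp3* and 40.0 CPM of *Gbp7*, close to replicates 1 and 4, but 15.4 CPM of *Gbp2*, 2.85 CPM each of *Gbp4* and *Gbp5*, 5.88 CPM of *Gbp9* and 0.237 CPM of *Gbp10*, nearer to the knockout tumors. Across the 11 tumors, after the group mean of log2(CPM + 1) was subtracted, Pearson's r between a member and the mean of the other tested members was 0.96 for *Gbp2*, 0.95 for *Gbp6*, 0.93 for *Gbp5*, 0.92 for *Gbp4*, 0.89 for *Gbp8*, 0.77 for *Gbp3*, 0.73 for *Gbp7* and 0.68 for *Gbp9*. Without wild-type replicates 3 and 5, the 2 tumors farthest from the median, *Gbp2* was at 0.93, *Gbp6* at 0.89, *Gbp3* at 0.17 and *Gbp7* at -0.05 over 9 tumors, with the group means taken again over these tumors. Without replicate 5 alone the same genes were at 0.92, 0.94, 0.38 and 0.33 over 10 tumors, and without replicate 3 alone at 0.96, 0.94, 0.74 and 0.60. For *Gbp3* and *Gbp7* the relation to the rest of the family therefore rested on those 2 tumors, and on replicate 5 more than on replicate 3. These correlations describe tumors that share their library preparation, and no p-value is given for them.

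Outside the family, the genes most like the mean of the tested GBPs by the same measure, among 13338 genes with a mean of at least 5 CPM, included *Ube2l6* (r = 0.95), *B2m* (0.95), *H2-Q5* (0.94), *9930111J21Rik2* (0.94), *Stoml1* (0.94), *Irgm2* (0.94) and *Fbxw17* (0.93). Without wild-type replicates 3 and 5 their r lay between 0.69, for *Irgm2*, and 0.90, for *B2m*, and without replicate 5 alone between 0.84, for *Irgm2*, and 0.92, for *B2m*. *B2m*, the light chain of MHC class I, had 261, 127, 373, 269 and 92.0 CPM in wild-type replicates 1 to 5 and between 87.4 and 166 CPM in knockout tumors. Replicate 3 was the highest, and replicates 2 and 5 lay within the knockout range (log2 fold change -1.05, SE 0.32, edgeR adjusted p = 0.108). *Ube2l6*, the conjugating enzyme for ISG15, had 9.59, 5.69, 11.5, 7.84 and 4.02 CPM in the same order and between 3.80 and 5.88 CPM in knockout tumors, with replicates 2 and 5 again inside the range of the other group. *H2-Q5*, annotated as a polymorphic pseudogene, differed from these 2 in that the groups did not overlap. It had 11.0, 6.83, 28.7, 10.1 and 3.39 CPM in wild-type replicates 1 to 5 and between 1.42 and 2.90 CPM in knockout tumors (log2 fold change -2.38, SE 0.46, edgeR adjusted p = 0.0212). With 1 tumor left out at a time it passed the threshold in 8 of 11 fits, with adjusted p from edgeR between 0.00582 and 0.0560.

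*Ifng*, the main inducer of GBPs, was barely detected, with between 0 and 4 counts per tumor, and was not tested. Its highest value was 0.284 CPM, near the floor of 3 counts. *Ifnb1*, *Ifnl2*, *Ifnl3* and *Ifne* were listed too but matched no gene name in the deposited data, so they could not be analysed. Of the 7 tested genes for inducing interferons and their receptors, 1 was lower and 0 were higher by edgeR, against 1.66% and 0.608% of all tested genes, with a median log2 fold change of -0.0062, against -0.00012 over all tested genes. *Ifnlr1*, the specific chain of the interferon lambda receptor, had 36.7 ± 9.05 CPM (SD, n = 5) in wild-type and 24.3 ± 2.70 CPM (SD, n = 6) in knockout tumors (log2 fold change -0.58, adjusted p = 0.0391 from edgeR), and it was called in 4 of 11 fits that left out a tumor (adjusted p between 0.0179 and 0.0940). *Ifnar1*, a chain of the type I interferon receptor, was at 71.9 ± 7.93 CPM (SD, n = 6) and 67.4 ± 9.94 CPM (SD, n = 5), and *Ifngr2*, a chain of the interferon gamma receptor, at 43.8 ± 8.61 CPM (SD, n = 6) and 36.3 ± 5.33 CPM (SD, n = 5) in knockout and wild-type tumors.

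Among 17 tested kinases and transcription factors through which GBP genes are induced, 3 were lower and 0 were higher by edgeR (1.66% and 0.608% of all tested genes), with a median log2 fold change of -0.28 (-0.00012 over all tested genes). The count depended on the tool, with 6 lower by DESeq2 (3.77% of all tested genes), 5 by limma-voom (6.19%) and 4 by edgeR without wild-type replicate 5 (1.65%), and at an unadjusted p under 0.05 edgeR placed 7 lower (10.5%). The 3 genes called by edgeR with all tumors were *Irf7* (-2.89, SE 0.31, adjusted p = 0.00194), *Stat2* (-1.42, SE 0.24, adjusted p = 0.0112) and *Irf9* (-0.85, SE 0.17, adjusted p = 0.0254). *Irf7* and *Stat2* were called with each tumor left out in turn, and *Irf9* in 5 of those 11 fits (adjusted p between 0.00269 and 0.0689). *Stat2* had 51.8, 57.0, 83.8, 55.3 and 25.4 CPM in wild-type replicates 1 to 5 and between 16.3 and 27.0 CPM in knockout tumors, so that replicate 3 was high and replicate 5 low, as for the GBPs, while replicate 2 was not low. *Irf1*, a strong activator of GBP genes and named here after its values were seen, was at 41.9 ± 4.67 CPM (SD, n = 6) in knockout and 42.2 ± 7.91 CPM (SD, n = 5) in wild-type tumors.

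Of 8 tested genes listed as negative regulators of interferon signaling, 2 were lower and 0 were higher by edgeR, beside 1.66% and 0.608% of all tested genes. The median log2 fold change was -0.24, beside -0.00012. *Isg15*, a ubiquitin-like modifier and itself an interferon-stimulated gene, was at -2.62 (SE 0.34, edgeR adjusted p = 0.00343) and was called with each tumor left out. *Usp18*, which removes ISG15 and restrains the type I receptor, was at -1.63 (SE 0.34, adjusted p = 0.0309) and was called in 4 of 11 such fits (adjusted p between 0.00176 and 0.0809). In wild-type replicate 5, *Usp18* was at 2.68 CPM, inside the knockout range of 1.80 to 4.33 CPM, as *Gbp2*, *Gbp3*, *Gbp6* and *Gbp7* were in theirs.

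The other interferon-inducible GTPases, the immunity-related GTPases and Mx proteins, which act beside GBPs at vacuoles or against viruses, form a separate list. Of 11 tested, 7 were lower and 0 were higher by edgeR, where 1.66% and 0.608% of all tested genes were, and the median log2 fold change was -1.41, where that of all tested genes was -0.00012. *Mx1* was at -2.28 (SE 0.36, adjusted p = 0.00742), *Mx2*, annotated as a polymorphic pseudogene, at -2.02 (SE 0.34, adjusted p = 0.0104) and *Igtp* at -1.80 (SE 0.32, adjusted p = 0.0149), and all 3 were called with each tumor left out. *Irgm2* (-1.41, adjusted p = 0.0264) was called in 5 of 11 such fits, and *Iigp1* (-2.10, adjusted p = 0.0397) and *F830016B08Rik* (-2.17, adjusted p = 0.0472) in 2 each, with adjusted p-values up to 0.0636, 0.0909 and 0.114. The deposited spans of *Igtp* (chr11:58199556-58207591) and *Irgm2* (chr11:58199618-58222782) overlap on the same strand, so their counts are uncertain. *Iigp1* had 115, 44.8, 219, 104 and 24.9 CPM in wild-type replicates 1 to 5 and between 13.1 and 35.3 CPM in knockout tumors, the same order of wild-type tumors as for *Gbp2*.

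Of 16 tested genes of vacuole targeting, the autophagy conjugation proteins and ubiquitin ligases that recruit GBPs, 1 was lower and 0 were higher by edgeR, set against 1.66% and 0.608% of all tested genes, with a median log2 fold change of 0.0034. That gene was *Rnf31*, the catalytic subunit of the linear ubiquitin chain assembly complex, at -0.70 (SE 0.11, adjusted p = 0.00742), with no overlap between the groups, and it was called with each tumor left out. Its deposited span on chromosome 14 ends at 55603693, past the start of *Irf9* at 55603571 on the same strand, so that their ends overlap. The ubiquitin gene *Ubb* had 658 ± 47.5 CPM (SD, n = 6) in knockout and 643 ± 53.2 CPM (SD, n = 5) in wild-type tumors, which differed by less than the spread between tumors.

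None of 13 tested genes of the inflammasome and pyroptosis, in which GBPs promote caspase activation, passed the threshold in edgeR, DESeq2 or limma-voom, with 0 lower and 1 higher at an unadjusted p under 0.05 in edgeR (10.5% and 8.19% of all tested genes), and a median log2 fold change of 0.08. *Pycard*, the adaptor ASC, had 37.7 ± 5.77 CPM (SD, n = 6) in knockout and 31.2 ± 3.93 CPM (SD, n = 5) in wild-type tumors, and *Ninj1*, which ruptures the plasma membrane, 18.1 ± 5.21 CPM (SD, n = 6) and 14.6 ± 4.95 CPM (SD, n = 5). Of 6 tested genes for prenylation and processing of the CaaX end that anchors GBP2 and GBP5 to membranes, 0 were called by any of the 3 tools and 0 at an unadjusted p under 0.05 in edgeR, with a median of -0.02. *Icmt* was at 73.2 ± 10.9 CPM (SD, n = 6) and 77.3 ± 11.5 CPM (SD, n = 5), and *Zmpste24* at 56.6 ± 5.00 CPM (SD, n = 6) and 56.2 ± 7.04 CPM (SD, n = 5). The only other GBP row in the tables was *Gbp11*, a polymorphic pseudogene at 0 to 0.356 CPM that was not tested.

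Markers of cell types that can make GBPs were set beside these values. The 12 T cell markers summed to 11.5, 8.06, 12.1, 13.7 and 5.36 CPM in wild-type replicates 1 to 5 and to 9.10 ± 2.40 CPM (SD, n = 6) in knockout tumors. The 11 macrophage markers summed to 685, 506, 541, 434 and 324 CPM and to between 421 and 677 CPM in knockout tumors, and the 8 endothelial markers to 77.5, 91.0, 85.2, 101 and 57.5 CPM and to 71.5 ± 15.4 CPM (SD, n = 6). Wild-type replicate 5, low in GBPs, thus had the lowest sum of its group in each of these lists. This tumor was also lowest in basal and myoepithelial markers, at 93.9 CPM, and in B cell markers, at 0.714 CPM. It was not the lowest of its group in NK and cytotoxic (3.93 CPM), dendritic cell (18.9 CPM) or neutrophil markers (2.32 CPM). Nor was it the lowest in fibroblast (419 CPM), luminal (1864 CPM) or adipocyte markers (9.82 CPM). The part of these cells in the GBP values was not tested.

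Wild-type replicate 3, highest in GBPs, had the most NK and cytotoxic marker transcripts of its group at 9.90 CPM, where knockout tumors ran from 2.62 to 10.4 CPM, and the most dendritic cell transcripts at 29.9 CPM, where they ran from 13.1 to 29.9 CPM. It also had 58.2 CPM of adipocyte markers, with at most 10.6 CPM in the other wild-type tumors. Replicate 2 had 8.06 CPM of T cell markers and 3.03 CPM of NK and cytotoxic markers, the latter the lowest of its group. Defining T cell markers were scarce throughout, with *Cd3d* at 0 in 5 tumors and *Cd8a* at 2.17 ± 0.968 CPM (SD, n = 6) in knockout and 2.57 ± 1.67 CPM (SD, n = 5) in wild-type tumors. Among NK markers *Klrk1* was the most abundant, at 1.47 ± 0.970 CPM (SD, n = 6) and 1.48 ± 1.36 CPM (SD, n = 5).

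The marker sums differed between the groups by less than their spread. Luminal epithelial markers summed to 1722 ± 314 CPM (SD, n = 6) in knockout and 1770 ± 237 CPM (SD, n = 5) in wild-type tumors, so that epithelial transcripts of the labelled tissue were abundant in every tumor. *Cdh1*, the most abundant by its mean over all 11 tumors, was at 311 ± 50.8 CPM (SD, n = 6) and 334 ± 55.2 CPM (SD, n = 5), and in knockout tumors *Cldn3* was higher at 320 ± 80.2 CPM (SD, n = 6). Of the 11 cell type lists, 1 held a gene past the threshold in edgeR, where 1.66% of all tested genes were lower and 0.608% higher. This gene was *Cd14*, a receptor for bacterial lipopolysaccharide listed as a macrophage marker (log2 fold change -1.19, SE 0.28, edgeR adjusted p = 0.0481). The macrophage list as a whole did not go its way, with a negative log2 fold change in 2 of 11 tested markers and a median of 0.19. *Cd14* was called in 3 of 11 fits that left out a tumor. *Lyz2*, the most abundant macrophage marker by its mean over all 11 tumors, had 193 ± 36.9 CPM (SD, n = 6) in knockout and 94.4 ± 41.3 CPM (SD, n = 5) in wild-type tumors (adjusted p = 0.0657 from edgeR), where *Cd14* was higher at 186 ± 101 CPM (SD, n = 5). DESeq2 called 1 macrophage marker lower and 1 higher, where 3.77% and 2.51% of all genes it tested were. With limma-voom 1 macrophage marker was higher and 1 dendritic cell marker lower, where 5.03% and 6.19% of all tested genes were.

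The other cell type lists are given by their summed CPM in the 6 knockout tumors, then in the 5 wild-type tumors, and their most abundant gene by its mean over all 11 tumors. Fibroblast markers, led by *Col1a1*, summed to 683 ± 193 (SD) and 565 ± 162 CPM (SD). Dendritic cell markers, led by *Zbtb46*, summed to between 13.1 and 29.9 CPM and between 17.1 and 29.9 CPM, and endothelial markers, led by *Cdh5*, to 82.4 ± 16.3 CPM (SD) in wild-type tumors. Neutrophil markers, led by *Csf3r*, summed to 2.90 ± 1.21 (SD) and 3.69 ± 2.89 CPM (SD), and basal and myoepithelial markers, led by *Oxtr*, to 319 ± 104 (SD) and 376 ± 276 CPM (SD). Adipocyte markers, led by *Fabp4*, summed to 10.9 ± 11.4 (SD) and 17.4 ± 23.0 CPM (SD), and of the B cell markers 2 were measured, led by *Pax5*, at 0.960 ± 0.578 (SD) and 1.23 ± 0.576 CPM (SD). At an unadjusted p under 0.05 edgeR placed 1 dendritic, 1 basal and 1 macrophage marker lower and 1 macrophage marker higher. Of all tested genes, 10.5% were lower and 8.19% higher at that threshold. None of the tested T cell, NK, neutrophil, endothelial, fibroblast, luminal or adipocyte markers passed it in either direction.

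The sequences before the starts of the chromosome 3 genes are shown because this cluster holds *Gbp3*, the member called, and interferon-responsive elements are known in GBP promoters. RefSeq promoters (GRCm38.p6) were matched for 4 of 9 members (*Gbp2*, *Gbp3*, *Gbp5* and *Gbp7*), with a second start for *Gbp3*, and not for *Gbp4*, *Gbp6*, *Gbp8*, *Gbp9* and *Gbp10*. The 250 bases before each start were searched on both strands for the letters of the gamma-activated site, TTCNNNGAA, which reads the same on both strands, and of the interferon-stimulated response element (ISRE), which were taken as TTTC, any 2 bases and TTTC again. Among 32851 promoters of that length, 7.02% held the first and 2.98% the second. All 4 windows below lie on the plus strand and read 5′ to 3′, with matches to either motif in capitals.

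*Gbp5* (chr3:142496684-142496933), with TTCTGGGAA at 245 and TTCTCAGAA at 52 bases before the start and the ISRE letters TTTCAATTTC at 165, and *Gbp7* (chr3:142530086-142530335), with TTCCAGGAA at 106, TTCTCAGAA at 87 and the ISRE letters TTTCAGTTTC at 53, each held 2 gamma-activated site matches and 1 ISRE match.
Gbp5: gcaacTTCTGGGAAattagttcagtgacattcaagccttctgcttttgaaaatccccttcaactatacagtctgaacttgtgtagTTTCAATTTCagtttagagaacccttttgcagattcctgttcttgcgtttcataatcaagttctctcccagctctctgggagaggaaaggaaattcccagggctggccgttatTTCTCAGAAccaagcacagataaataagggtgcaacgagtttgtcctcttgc
Gbp7: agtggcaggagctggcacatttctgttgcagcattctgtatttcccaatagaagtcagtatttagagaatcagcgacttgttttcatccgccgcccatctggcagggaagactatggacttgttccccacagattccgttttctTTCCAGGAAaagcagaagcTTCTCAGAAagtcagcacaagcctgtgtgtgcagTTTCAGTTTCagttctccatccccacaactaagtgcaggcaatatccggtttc

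*Gbp3* (chr3:142559794-142560043) held 0 gamma-activated site matches and 2 ISRE matches that overlap, TTTCAGTTTC at 45 and TTTCTATTTC at 39 bases before the start, and *Gbp2* (chr3:142620413-142620662) held 0 and 1, TTTCACTTTC at 59.
Gbp3: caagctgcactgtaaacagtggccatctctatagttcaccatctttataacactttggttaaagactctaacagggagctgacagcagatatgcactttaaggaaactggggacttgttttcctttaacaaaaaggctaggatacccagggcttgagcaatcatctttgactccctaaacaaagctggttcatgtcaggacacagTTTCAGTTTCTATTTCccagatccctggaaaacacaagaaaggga
Gbp2: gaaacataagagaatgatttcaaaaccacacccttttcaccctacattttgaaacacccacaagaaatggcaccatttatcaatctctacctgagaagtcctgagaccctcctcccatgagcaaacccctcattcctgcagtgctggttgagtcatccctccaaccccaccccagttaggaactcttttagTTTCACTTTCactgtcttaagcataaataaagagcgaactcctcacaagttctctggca

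The window before the second start of *Gbp3* (chr3:142560106-142560355) held neither motif. The same ISRE letters, TTTCAGTTTC, occur before *Gbp3* and *Gbp7*, and the same gamma-activated site letters, TTCTCAGAA, before *Gbp5* and *Gbp7*. The windows of *Gbp5* and of the second start of *Gbp3* lie wholly inside the deposited gene spans. Those of *Gbp2* and of the first start of *Gbp3* lie in part inside them. These spans begin at 142493978 for *Gbp5*, 142620602 for *Gbp2* and 142560026 for *Gbp3*, upstream of the RefSeq starts used. A match describes the letters only and is neither a site shown to be bound nor a cause, and the absence of a match says only that these letters are not in the window.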

How the data were processed

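RNA from 11 mammary tumors, 6 PyMT *Pcbp1*–/– and 5 PyMT *Pcbp1*+/+, was extracted with Trizol, and the labels describe stranded poly(A)-enriched libraries and a single batch. The authors checked the reads with FastQC, used Bowtie2 to align the read pairs to GRCm38 and quantified genes in Partek Flow, as the study's methods and the submitters' processing notes state, and deposited estimated counts per gene. The counting method and annotation version are not given in the sources used here. Between 18.1 and 19.8% of the deposited estimated counts in a tumor are not exactly whole, and between 13.4 and 14.3% depart from a whole number by more than 0.01. The authors also deposited CPM, which is each estimated count scaled to the total of its tumor.

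Groups and replicate numbers come from the labels. Estimated counts were rounded and fitted with edgeR 4.0.16 in R 4.3.3 (TMM normalization, edgeR's default low-count filter, quasi-likelihood test, no covariate beside genotype), with p-values adjusted by Benjamini-Hochberg over the 19232 genes tested, and tested on simulated data. The standard error (SE) of a log2 fold change is its size divided by the square root of edgeR's F. Deposited stop positions lie 1 past the end of a gene and were moved back by 1. Alternatives were DESeq2 1.42.0, limma 3.58.1 (voom with sample quality weights, and log2(CPM + 1) or log2(CPM + 0.1) from the deposited CPM), library size only, upper-quartile factors, no filter or at least 1 CPM in 5 tumors, protein-coding genes only, the replicate number as a block, and each of the 11 tumors left out. Scaling the CPM by TMM factors was added after the data were seen.

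The GBP genes, 8 pathway lists, 11 cell type lists and the rule for named genes were chosen with earlier results of these data known. The rule names every GBP gene, the 6 list genes with the largest fold changes past the threshold (or the 2 most abundant where fewer than 2 passed), the most abundant gene and any past the threshold of each cell type list, and the 8 genes most like the GBPs. Lists are described by counts and medians without a set test. Of the genes that the rule names, 2 are not reported here. Groups could not be compared within batches, since the labels give only 1.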

Additional observations from a re-analysis of the deposited data

Results flagged for a closer look

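In 108 groups of values, each of 5 or 6 tumors, 6 held a tumor far from the rest of its group, against 5.4 expected by chance, and no GBP gene was among them. For *Irf9*, PyMT *Pcbp1*+/+ replicate 5 had 39.5 CPM, with 73.6 CPM in the nearest tumor of its group, and it is the same tumor that was low in most GBP genes. Adipocyte markers summed to 58.2 CPM in PyMT *Pcbp1*+/+ replicate 3, the tumor highest in every GBP gene, with 10.6 CPM in the nearest tumor, and *Fabp4* was at 19.5 CPM there, with 3.39 CPM in the nearest. *Fabp4* was also apart in PyMT *Pcbp1*–/– replicate 1, at 10.3 CPM with 4.25 CPM in the nearest. Basal and myoepithelial markers summed to 123 CPM in PyMT *Pcbp1*–/– replicate 2, with 301 CPM in the nearest. The 2 measured B cell markers summed to 2.09 CPM in PyMT *Pcbp1*–/– replicate 6, with 1.03 CPM in the nearest.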

How the results depend on the processing

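Over 21 alternatives, *Gbp2*, *Gbp3*, *Gbp4*, *Gbp5*, *Gbp6*, *Gbp7* and *Gbp9* had a negative log2 fold change in each, and *Pcbp1* lay between -3.60 and -3.34 and was called in all 21. *Gbp3* was called in 20. *Gbp8* was positive with limma on log2(CPM + 0.1), at 0.0638, and between -0.52 and 0.33 with a tumor left out. The number of GBP genes called lower was 3 with DESeq2 and 4 with limma-voom, ranged from 1 to 5 with a tumor left out, and was 1 under every other alternative except the replicate block. The number with no overlap ranged from 0 to 4 with a tumor left out. The summed GBP CPM in PyMT *Pcbp1*–/– relative to PyMT *Pcbp1*+/+ tumors ranged from 0.428 to 0.603 with a tumor left out, and was 0.474 without *Gbp7* and 0.496 with TMM-scaled CPM.

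Over all genes, DESeq2 called 723 lower and 482 higher and limma-voom 1190 lower and 968 higher, and with a tumor left out edgeR called between 144 and 389 lower and between 41 and 187 higher. The cause of the differences between tools was not tested.

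The labels do not say whether the replicate numbers pair the tumors, and the correlations given next cannot settle it. The correlation of deviations of same-numbered tumors was over 0.1 in 2 of 5 pairs, and 2 of 5 tumors in each group correlated best with their own number. In a fit of 10 tumors (numbers 1 to 5) that took replicate as a block, 0 GBP genes were called lower, and 118 genes were lower and 42 higher over all genes. *Gbp3* was at -1.96 (adjusted p = 0.0659 from edgeR) in that fit. Depth limits *Gbp10* and *Gbp8*, which had as few as 1.00 and 5 counts in a tumor.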
